A study of Mus musculus with 2 samples.

Results

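The Dlk1-Dio3 domain is an imprinted stretch of mouse chromosome 12, and 6 of its genes were described: the protein-coding genes Dlk1, Rtl1 and Dio3 and the noncoding RNA genes Meg3, Rian and Mirg. They were found by Ensembl ID, named from an annotation of the mm10 build, and make up 6 of 43346 gene rows and 55 of 103639 transcript rows in the tables of each library. The libraries were total RNA of skeletal muscle from B6NCrl mice at postnatal day 0, with no treatment or altered allele named in the labels. There was 1 group of 2 samples, each labelled as another pup of the same pregnancy (pup 1 is replicate 1, pup 2 replicate 2), although both samples carry one and the same donor entry. The muscle taken is not named and sex was not collected. With 1 library for each pup, an exact sign-flip test cannot go below p = 0.5, so no test was run, and every spread below is that between these 2 samples, which may be technical.

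In an imprinted domain, each gene is read mainly from the chromosome of one parent. Dlk1, Rtl1 and Dio3 are known as paternally expressed and Meg3, Rian and Mirg as maternally expressed, and the choice is set by a region between Dlk1 and Meg3 that is methylated on the paternal chromosome. The domain is best known in muscle from the callipyge sheep, whose hindquarter muscles are enlarged and carry too much Dlk1 and Rtl1. The tables hold no allele information, so the levels below are sums over both chromosomes.

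The small RNAs for which the noncoding genes are known lie inside and between them. The RefSeq table (GRCm38.p6) places 58 microRNA hairpins with 113 mature sequences in the domain, of which 13 mature sequences lie within Rtl1, 26 within Mirg, 6 within Rian, 3 within Meg3 and 65 between these genes. The seed, bases 2 to 8 of the mature sequence, is the stretch that pairs with targets, and 104 different seeds were found. Only 9 seeds were shared, each by 2 mature sequences. The Rtl1 set is shown first because it lies on the strand opposite to a member's coding sequence: 11 mature sequences of 6 hairpins are complementary to Rtl1 over their whole length, all of them within its coding sequence. One for each hairpin is printed, seed in capitals, with the site of miR-127-3p as it reads on the Rtl1 strand (chr12:109592888-109592909, mm10, minus strand). The pair after it, both inside Mirg, shows a shared seed.
mmu-miR-127-3p: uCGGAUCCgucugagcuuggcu
Rtl1 site of mmu-miR-127-3p: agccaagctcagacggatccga
mmu-miR-431-3p: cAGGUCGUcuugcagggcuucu
mmu-miR-433-3p: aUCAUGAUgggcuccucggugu
mmu-miR-434-3p: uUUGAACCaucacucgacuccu
mmu-miR-432: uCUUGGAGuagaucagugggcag
mmu-miR-136-3p: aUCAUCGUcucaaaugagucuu
mmu-miR-453: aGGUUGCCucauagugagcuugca
mmu-miR-496a-5p: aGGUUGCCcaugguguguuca

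A sequence that carries a result in Dlk1 is an optional piece of its last coding exon, 219 bases at chr12:109459893-109460111 (mm10, plus strand), taken from the annotated whole transcript Dlk1-205. It begins with GT and ends with AG, the bases that bound most introns, and it is left out of the model Dlk1-203. Capitals mark the 153 bases that the model Dlk1-206 also leaves out. As background, this part of the gene encodes the stretch beside the membrane in which proteases cut DLK1 to release its outer part, and forms without it stay at the cell surface.
Dlk1 optional segment: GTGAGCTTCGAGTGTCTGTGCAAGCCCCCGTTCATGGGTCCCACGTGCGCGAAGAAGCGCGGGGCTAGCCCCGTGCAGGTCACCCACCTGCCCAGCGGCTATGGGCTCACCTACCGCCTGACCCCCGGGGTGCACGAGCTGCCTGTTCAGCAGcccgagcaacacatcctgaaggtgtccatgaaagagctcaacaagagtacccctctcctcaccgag

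The promoter of Meg3 is shown because Meg3 was the member with the highest level. The 300 bases (chr12:109540746-109541045, plus strand, from 250 before to 50 after the RefSeq start, GRCm38.p6) were searched on both strands for TATAAA, the core of the TATA box, and TGACGTCA, the cAMP response element, which reads the same on both strands. Capitals mark every match, and the TATAAA matches of both strands overlap. The cAMP response element begins 57 bases before the start. Of 32851 promoters of this length, 13.6% held TATAAA and 1.79% held TGACGTCA. This window, the upstream one of the Meg3 starts in the table, had 13 CpG dinucleotides, against 9 at Dlk1, 10 at Mirg, 25 at Dio3, 0 at Rian and a median of 7 over all promoters.
Meg3 promoter: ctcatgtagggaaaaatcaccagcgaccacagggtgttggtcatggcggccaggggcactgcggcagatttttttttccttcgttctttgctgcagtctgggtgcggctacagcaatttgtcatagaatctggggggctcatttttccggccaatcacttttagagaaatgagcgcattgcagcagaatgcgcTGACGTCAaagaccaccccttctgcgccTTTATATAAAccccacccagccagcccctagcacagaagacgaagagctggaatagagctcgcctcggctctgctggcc

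The tables held 40454600 expected counts (reads assigned to genes by a model, so not always whole) over genes for replicate 1 and 37150684 for replicate 2. All 8 skeletal muscle markers were at 1 TPM or above, led by skeletal actin Acta1, and summed to 79612 and 89697 TPM in replicates 1 and 2. TPM is the length-corrected unit of the files, and it allows genes to be compared with each other. Replicate 1 stood apart in tissue mixture. Adipocyte markers (6 of 7 at 1 TPM or above) summed to 4984 TPM in replicate 1 and 888.8 TPM in replicate 2, and epidermal markers (5 of 5) to 428 and 4.19 TPM. Cartilage markers (5 of 6) summed to 42.9 and 4.09 TPM, with Snorc listed at 0 in replicate 2. In whole tissue, fewer cells of a type and less RNA for each cell cannot be told apart.

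In newborn muscle the domain was led by Meg3, followed by Dlk1, Rian, Mirg, Rtl1 and, far below, Dio3, in the same order in both pups. A mean level of 1 TPM or above was reached by 5 of the 6 members, all but Dio3. Over the whole table the same level was reached by 58.2% of 21474 protein-coding genes and by 10.4% of 5694 long noncoding genes. The members together took 0.545% and 0.634% of the gene counts of replicates 1 and 2.

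**Figure D1:**
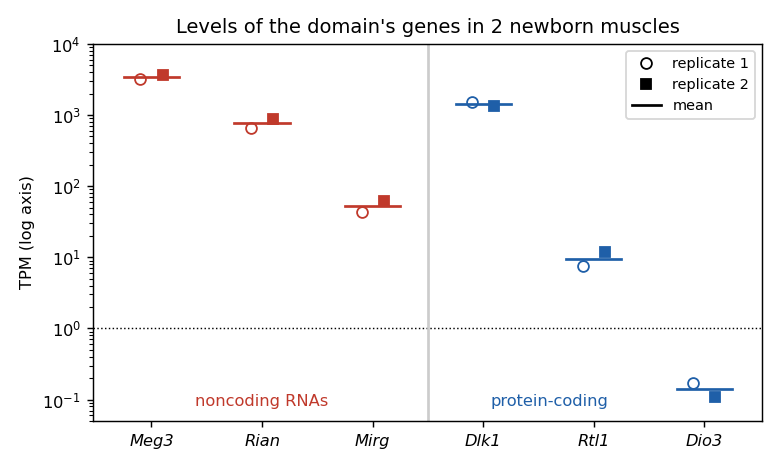
TPM of the 6 members on a log axis, with replicate 1 as open circles, replicate 2 as filled squares and the mean as a line. The dotted line marks 1 TPM. In both classes the levels fall over more than one decade from the first gene to the last, and Dio3 lies below the line in both pups.

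Meg3 (ENSMUSG00000021268, chr12:109541001-109571726, plus strand) is a long noncoding RNA gene studied for its part in growth control and in holding the maternal copy of Dlk1 silent. It stood at 3209 TPM in replicate 1 and 3663 TPM in replicate 2, a mean of 3436 ± 322 TPM (SD, n = 2). It ranked 2 among 5694 long noncoding genes. Only Malat1, a nuclear RNA found in most cells, was higher, at 4525 and 5426 TPM. H19, the maternally expressed RNA of another imprinted domain, stood at 2152 and 2640 TPM, below Meg3 in each pup. Gm42418, at 2706 and 3444 TPM, lay between Meg3 and H19, and Gm26917 after them at 1409 and 959 TPM. This order is by TPM, which divides by length. By counts Malat1 (58050 and 64893) lay below Meg3 (119234 and 133409), and Gm42418 (140144 and 168671) above it.

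Rian (ENSMUSG00000097451, chr12:109603940-109661716, plus strand) is the host of box C/D snoRNAs, small RNAs of a kind that guides methylation of other RNAs. It stood at 665 and 894 TPM (779.6 ± 162, SD, n = 2) and ranked 6 among long noncoding genes. Mirg (ENSMUSG00000097391, chr12:109729764-109749460, plus strand), a host of microRNAs, stood at 43.3 and 61.8 TPM (52.6 ± 13.1, SD, n = 2) and ranked 23. All noncoding members were lower in replicate 1 than in replicate 2 on this scale, and their levels did not overlap with one another. The 3 genes held 19.3% and 20.5% of the TPM of all long noncoding genes.

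Among the protein-coding members, Dlk1 (ENSMUSG00000040856, chr12:109452823-109463336, plus strand) encodes a membrane protein with EGF-like repeats that is related to Notch ligands and is used as a marker of preadipocytes. It stood at 1544 and 1351 TPM (1447 ± 136, SD, n = 2) and ranked 68 of 21474 protein-coding genes. In TPM, Dlk1 was the only member with at least 100 counts that was higher in replicate 1. Its log2 ratio of replicate 2 over replicate 1 was -0.19 in TPM, where the median of all genes was -0.15. With the TMM scaling described below it was -0.01. Fibroblast and preadipocyte markers (6 of 6 at 1 TPM or above) summed to 5250 TPM in replicate 1 and 3769 TPM in replicate 2. The collagen genes Col3a1 (2496 and 1897 TPM) and Col1a1 (1899 and 1228 TPM) made up most of these sums. Pdgfra, a marker of the progenitors that was named after its values were seen, went the other way, at 11.6 and 13.2 TPM. The part of these cells in the level of Dlk1 was not tested.

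Rtl1 (ENSMUSG00000085925, chr12:109589193-109600330, minus strand) encodes a protein derived from a retrotransposon that is known from placental capillaries and from muscle. It stood at 7.48 and 11.8 TPM (9.62 ± 3.02, SD, n = 2), from 1400 and 2080 counts, and ranked 6878 among protein-coding genes. It is the member on the minus strand, and the sources used here do not give whether counting used strand. Without strand, reads from Rtl1 and from the RNA that carries the opposite microRNAs cannot be told apart, and its level is uncertain for that reason.

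Dio3 (ENSMUSG00000075707, chr12:110279068-110281097, plus strand) encodes the deiodinase that inactivates thyroid hormone. It had 10 counts in replicate 1 and 6 in replicate 2, or 0.17 and 0.11 TPM (0.14 ± 0.042, SD, n = 2). It ranked 14969 among protein-coding genes. Its row rests on 1 of 2 annotated single-exon models, and at this depth a difference between the pups was not detectable.

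Set against each other as sums, the noncoding members reached 3917 and 4619 TPM and the protein-coding members 1551 and 1362 TPM. The noncoding sum was 2.53 times the coding sum in replicate 1 and 3.39 times in replicate 2. On the log2 scale the ratio was 1.34 and 1.76, a mean of 1.55 ± 0.30 (SD, n = 2), so that its size was larger than the spread between the pups. Each sum is nearly 1 gene: Meg3 made up 81.9% and 79.3% of the noncoding TPM, and Dlk1 99.5% and 99.1% of the coding TPM. Without these 2 genes the log2 ratio was 6.43, and over the medians of each class 6.36. The contrast of the classes thus had the same direction with both leading genes and without both, and a far larger size without them. Its direction rests on Meg3, however. Without Meg3 alone, Rian (665 and 894 TPM) and Mirg (43.3 and 61.8 TPM) together stay below Dlk1 (1544 and 1351 TPM) in each pup.

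Single pairs, given as log2 differences of TPM with 0.1 added, did not all follow the contrast of the sums. Dlk1 lay below Meg3 by a log2 difference of -1.25 ± 0.27 (SD, n = 2), but above Rian by 0.90 ± 0.44 and above Mirg by 4.80 ± 0.50. In mean level Dlk1 and Rian were the closest pair, with differences of 1.21 and 0.60 in replicates 1 and 2, although in replicate 1 Dlk1 was closer to Meg3 (-1.06). The levels of Dlk1 and Rian did not overlap between the pups. Within the noncoding class, Meg3 exceeded Rian by 2.15 ± 0.17 and Rian exceeded Mirg by 3.90 ± 0.06. Within the coding class, Dlk1 exceeded Rtl1 by 7.25 ± 0.59 and Rtl1 exceeded Dio3 by 5.31 ± 0.71. Rtl1 lay below every noncoding member: Meg3 exceeded it by 8.50 ± 0.32, and its own difference was -6.35 ± 0.15 against Rian and -2.45 ± 0.09 against Mirg.

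Along the chromosome the 6 genes span 828 kb. Counted from the start of Dlk1, Meg3 begins at 88.2 kb, Rtl1 at 136 kb, Rian at 151 kb, Mirg at 277 kb and Dio3 at 826 kb. The 3 noncoding members fell in level in the order of their position, from Meg3 through Rian to Mirg, within 208 kb. The 4 further long rows of this stretch, described below, did not follow that order. Each lies before Mirg but was below it, from 20.4 TPM in the mean (Gm26906) to 1.2 TPM (Gm26945). From the end of Mirg to the start of Dio3 lie 530 kb. Genes outside the domain were far below Dlk1: Begain, the nearest on its side, stood at 2.74 and 2.08 TPM and Wdr25 at 3.02 and 2.4 TPM. On the side of Dio3, Ppp2r5c, a subunit of a protein phosphatase, stood at 42.6 and 41.2 TPM and Dync1h1, the heavy chain of dynein, at 18.8 and 19.6 TPM.

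**Figure D2:**
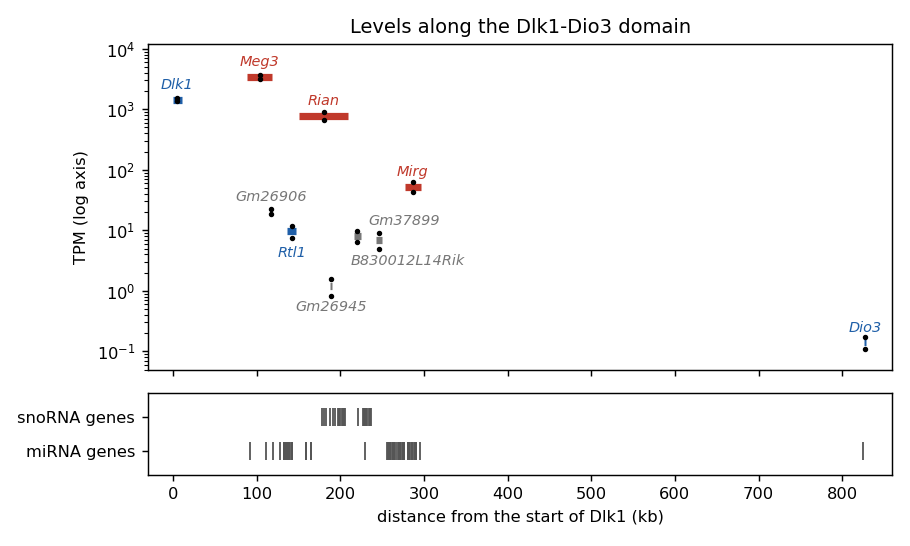
Level of each member and of 4 further long transcript rows (TPM, log axis) over distance from the start of Dlk1 in kb. Bars span the gene at its mean and dots are the 2 replicates, with noncoding members in red, protein-coding members in blue and other rows in grey; the lower panel marks annotated microRNA and snoRNA genes. Meg3, Rian and Mirg step down from 3436 to 779.6 and 52.6 TPM in the order of their position. The 4 further rows lie before Mirg and below it in level, and do not follow that order.

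Beside the members, 90 further rows of the tables lie in the domain, and 8 of them held at least 1 count. The long ones were 4 rows that lie from Meg3 to Mirg. Gm26906, within the span of Meg3 and on the strand opposite to the end of Meg3, stood at 18.6 and 22.1 TPM, and its reads and those of Meg3 cannot be told apart without strand. Gm37899 stood at 6.35 and 9.88 TPM and B830012L14Rik at 4.88 and 8.96 TPM. Gm26945, which lies within the span of Rian on the same strand, stood at 0.82 and 1.57 TPM. All 4 were higher in replicate 2 than in replicate 1.

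The small RNAs themselves were not measured here. Each library was made from RNA longer than 200 nt, and of 86 small RNA rows (59 microRNA, 23 snoRNA and 4 other) 75 have an effective length of 0 in the tables, meaning no position at which a fragment could start, and can hold no counts. The other 11 held 0 counts in replicate 1 and 6 in replicate 2, in Mir1188, Mir1197, Gm25252 and Gm27379. The 0 allows up to 3 counts, or 7.42e-06% of the library. Their hosts can be compared by annotation only. Within Rian lie 13 snoRNA and 4 microRNA genes, within Mirg 15 microRNA genes, and within Rtl1 7 microRNA genes, 6 of them on its opposite strand.

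Most of the Dlk1 message carried the optional segment shown above. The model Dlk1-205, which has it, took 69.2% and 73.0% of the Dlk1 TPM in replicates 1 and 2, and Dlk1-203, which lacks its 219 bases, took 15.8% and 12.6%. By counts the shares were 78.0% and 79.7% for Dlk1-205 and 11.5% and 8.85% for Dlk1-203. Dlk1-203 was lower in replicate 2 by a log2 ratio of -0.39 (95% counting interval -0.44 to -0.34), while Dlk1-205 had a ratio of 0.02 (0.00 to 0.04). The other models that lack the whole segment went the other way. Their ratios were 0.10 (0.02 to 0.18) for Dlk1-208, 0.32 for Dlk1-204 and 2.14 for the scarce Dlk1-202. Of the models that lack part of it, Dlk1-209 had -0.63 (-0.75 to -0.51) and Dlk1-206 had 0.25 (0.09 to 0.41). All these other models were named after their values were seen. The counting intervals of models do not include the error of splitting reads between models that overlap.

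Grouped over all models that cover this exon, those with the whole exon held 70.2% and 74.4% of the TPM, 72.3% ± 2.97 (SD, n = 2). Models lacking 219 or 225 bases held 17.6% and 14.6%, and those lacking 279 or 285 bases 2.96% and 4.56%. Models lacking 150 or 153 bases held 9.23% and 6.44%, nearly all of it in Dlk1-209, a partial model of 483 nt that was singled out after its values were seen. Without that model the last share was 0.363% and 0.439%, and the whole exon rose to 77.1% and 79.2%. Every gap length is a multiple of 3, so each of these forms keeps the reading frame. All shares are estimates of a model that splits reads between forms that overlap.

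**Figure D3:**
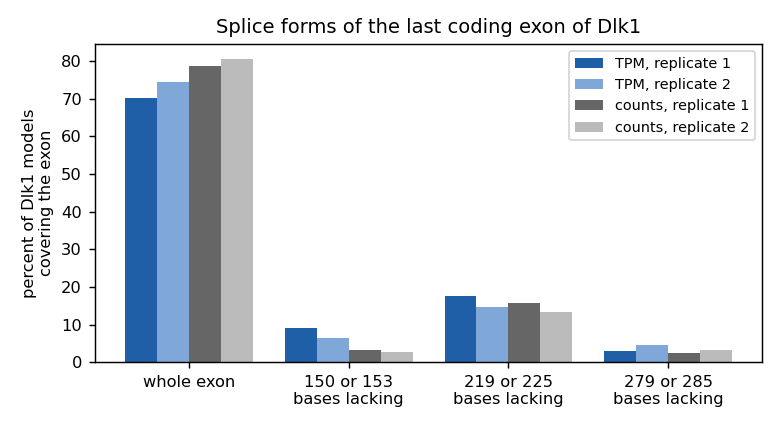
Share of Dlk1 in models grouped by what they lack of the last coding exon, in percent of TPM (blue) and of expected counts (grey), 1 bar for each replicate. The whole exon holds over 70% on both scales in both pups, and the models lacking 219 or 225 bases are the next group.

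The noncoding members were spread over more forms. Meg3 had 4 transcripts with at least 10% of its TPM in a library. Meg3-205, a short form that ends within the first part of the gene, led with 46.5% and 47.4%, followed by Meg3-211 with 21.4% and 20.5%, Meg3-207 with 12.3% and 13.3% and Meg3-202 with 11.6% and 10.8%. The order was the same in both pups. Meg3-209, a 14548 nt model named after its values were seen, took 0.81% and 1% of the TPM but 9.36% and 11.2% of the counts, since TPM divides by length.

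Rian had 3 such transcripts, all in the last part of the gene. Rian-202 held 43.7% and 40.1% of the TPM, Rian-213 33.9% and 37.5%, and Rian-208 14.1% and 11.3%. By counts Rian-202 held 59.8% and 54.7% and Rian-213 23.0% and 25.4%, while Rian-208, a model of 352 nt, held 2.16% and 1.73%. Mirg had Mirg-202 with 28.4% and 32.0%, Mirg-207 with 27.0% and 27.7% and Mirg-201 with 23.2% and 20.2%. By counts Mirg-201 led in replicate 1 with 36.6% against 29.8% for Mirg-202, and in replicate 2 Mirg-202 led with 33.6% against 31.9%. Rtl1 has 1 model and needs no split.

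Between the pups, none of the 5 members with at least 100 mean counts differed by 2-fold, a size reached by 2.43% of the 12429 genes with as many counts. At 1.5-fold, 2 of the 5, Rtl1 and Mirg, lay past the limit, against 6.15% of all these genes. Ratios here are of CPM (counts scaled to library size) after scaling the libraries with TMM, a method that centres the bulk of genes near equality, and the median of all genes was -0.01. Dlk1, with 65685 and 56113 counts, had a log2 ratio of replicate 2 over replicate 1 of -0.01 (95% counting interval -0.03 to 0.00). Meg3, with 119234 and 133409 counts, had 0.37 (0.36 to 0.39). Rian, with 32817 and 41763 counts, had 0.56 (0.54 to 0.58).

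The remaining members were further from equality or too low to place. Mirg, with 1484 and 2000 counts, had a log2 ratio of 0.64 (0.55 to 0.74), and Rtl1, with 1400 and 2080 counts, had 0.78 (0.69 to 0.88). The interval of Dio3 ran from -2.27 to 1.08. Counting intervals cover the error of counting reads only, and PCR copies without molecular identifiers are not independent, so they do not include the spread between animals. Among the genes with at least 100 counts, 49.5% had a ratio below that of Dlk1, 95.2% below Meg3, 98.7% below Rian, 99.2% below Mirg and 99.6% below Rtl1. Of these 12429 genes 11873 are protein-coding, and long noncoding genes lay higher as a class. Over 276 long noncoding genes the upper quartile was 0.32 and the 95th percentile 0.645. Meg3, Rian and Mirg (0.643) lay between these 2 values, so they were less extreme within their own class.

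The rows from Meg3 to Mirg thus had ratios on the same side, and the row of Rtl1 lay with the noncoding RNAs and not with Dlk1. Without strand, this row may also hold reads of the noncoding RNA opposite to Rtl1, so its ratio cannot be given to the coding message alone. The further rows in this stretch had 0.38 (Gm26906), 0.77 (Gm37899), 1.01 (B830012L14Rik, counting interval 0.87 to 1.15) and 1.03 (Gm26945, with 47 and 85 counts). B830012L14Rik was the row of the domain past 2-fold with at least 100 counts, and it fell short of that limit by total counts (0.92) and in TPM (0.86). The genes outside the domain had ratios of -0.36 (Begain), -0.19 (Wdr25), 0.08 (Ppp2r5c) and 0.07 (Dync1h1).

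**Figure D4:**
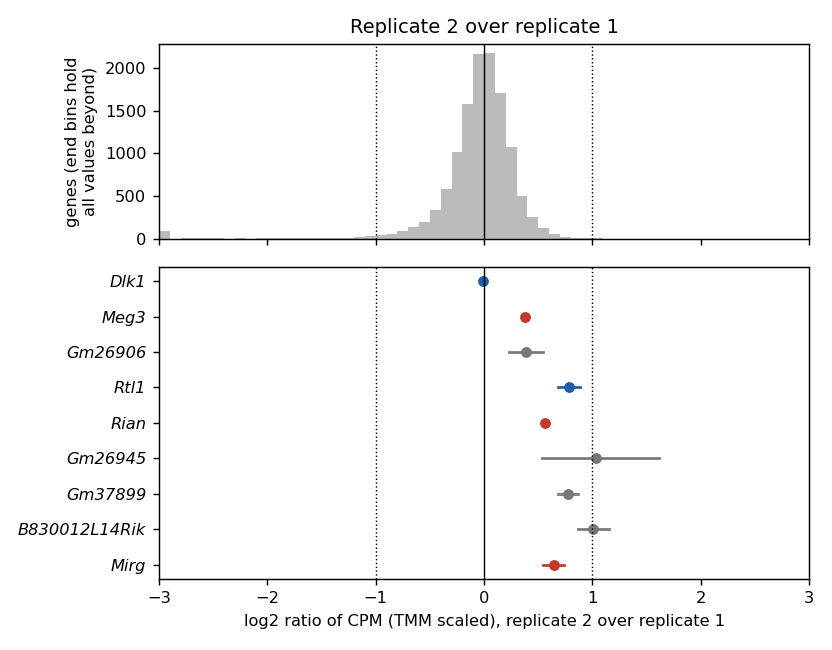
Log2 ratio of replicate 2 over replicate 1, with the number of genes in each bin for all genes with at least 100 mean counts above and the members (red noncoding, blue protein-coding) and further rows (grey) below in their order on the chromosome, with 95% counting intervals. Dotted lines mark 2-fold. Dlk1 sits at -0.01 and every row from Meg3 to Mirg to the right of 0.

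Other scalings moved the median of all genes, to -0.10 by total counts and -0.15 in TPM. In TPM the ratios of the members with at least 100 counts were also lower, 0.19 for Meg3, 0.43 for Rian, 0.51 for Mirg, 0.64 for Rtl1 and -0.19 for Dlk1, while that of Dio3 was -0.36 against -0.42 with TMM. Mirg was not past 1.5-fold in TPM or by total counts (0.55), while Rtl1 was. No member's ratio changed sign under DESeq2's size factors, total counts, TPM or posterior mean counts. With TMM, long noncoding genes as a class also lay higher in replicate 2, with a median of 0.14 over 276 genes and 66.3% of them above 0. Their median was 0.05 by total counts and -0.01 in TPM, above that of all genes on each scale but not above 0 in TPM. Transcripts annotated as retained introns had a median of 0.10 with TMM. Within the members, models longer than 3 kb had larger ratios than the shorter ones, 0.63 against 0.35 in Meg3, 0.78 against 0.52 in Rian and 0.77 (counting interval 0.42 to 1.13) against 0.63 in Mirg, where the interval includes the value of the shorter models.

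Tissue mixture also differed between the 2 libraries. All 6 adipocyte markers with at least 100 counts were past 2-fold and higher in replicate 1 (median log2 ratio -3.83), as were 5 of 5 epidermal markers (median -8.92) and 3 of 4 cartilage markers (median -3.18). Of the satellite cell, endothelial, nerve, leukocyte, liver and red cell markers with at least 100 counts, Trf alone was past 2-fold (-3.18), a liver marker that other tissues also make. The 8 skeletal muscle markers had a median of 0.28, from 0.05 to 0.60. The part of tissue mixture in the ratios of the members was not tested.

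Genes that act with the members were present at far lower levels than the domain's leading genes. Of 13 genes of DLK1 and Notch signalling, 13 were at 1 TPM or above, and their sum was 107 and 89.1 TPM, below Dlk1 alone. The Notch target Hes1 led at 23.6 and 16.2 TPM, followed by Adam17, a protease that cuts DLK1, at 13.0 and 11.5 TPM, the Notch feedback gene Nrarp at 11.6 and 7.55 TPM and the receptor Notch2 at 9.63 and 8.96 TPM. None of them was past 2-fold between the pups, and their median log2 ratio was -0.02.

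For Dio3, the thyroid hormone list had 5 of 8 genes at 1 TPM or above. It was led by the corepressor Ncor1 at 71.5 and 66.1 TPM and by the receptor Thra at 34.0 and 36.7 TPM, with the partner receptor Rxra at 8 and 7.03 TPM. The other deiodinases were low too: Dio2, which activates the hormone and was named after its values were seen, had 74 and 67 counts, and Dio1 had 0 and 1. For Rtl1, 6 of 10 relatives from the same retrotransposon family reached 1 TPM. The X-linked copies Rtl8a, at 93.0 and 79.8 TPM, and Rtl8b, at 89.0 and 73.8 TPM, are similar enough to share reads. Rtl3 stood at 46.3 and 40.9 TPM and Rtl8c at 16.5 and 15.1 TPM. These 4 relatives, and Peg10 at 10.2 and 15.3 TPM, which was named after its values were seen, lay above Rtl1 in each pup.

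Factors known to act on the domain were largely present. Of 14 imprint control genes 12 were at 1 TPM or above, led by Mef2c, a muscle transcription factor, at 144 and 149 TPM and by Trim28, the cofactor of the zinc finger proteins that keep imprints, at 72.9 and 62.6 TPM. Mef2d stood at 53.6 and 56.7 TPM and the DNA methyltransferase Dnmt3a at 49.1 and 41.8 TPM, while Dppa3 had 0 counts in both libraries. All 5 polycomb genes passed 1 TPM, led by Eed at 18.9 and 15.7 TPM and Ezh2 at 16.1 and 12.1 TPM. All 11 genes of small RNA processing did so too, led by the snoRNA-binding proteins Snu13 at 101 and 93.9 TPM and Nop58 at 73.9 and 71.2 TPM. None of the genes in these lists with at least 100 counts was past 2-fold.

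Set among imprinted genes of other chromosomes, the leading members were of like level to the highest. Of 21 such genes 19 were at 1 TPM or above and 0 past 2-fold, and their median log2 ratio was 0.14. The growth factor gene Igf2 stood at 2361 and 2796 TPM, between Meg3 and Dlk1 in both pups, as did Gnas, a G protein subunit, at 2375 and 2321 TPM. Cdkn1c, an inhibitor of the cell cycle, stood at 1307 and 945 TPM, below Dlk1 and above Rian in each pup. The ratio of Igf2 was 0.40 and that of H19 0.44, near that of Meg3, while that of Cdkn1c was -0.33.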

How the data were processed

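Total RNA of newborn muscle was measured in 2 libraries, 1 group. Per the labels' protocols, RNA came from a mirVana extraction with a size above 200 nt, the input was 10 ng, and a SMARTer Ultra Low kit manual is listed. The files that accompany the tables name mm10 and GENCODE M4. Aligner, quantifier and use of strand: not given in the sources used here. The authors deposited expected counts and TPM for each gene and transcript, with posterior means of both and a posterior SD of the count, per the file headers. They also deposited the percent of a gene's TPM that falls to each transcript. The bounds of the TPM interval the authors deposited, treated as a score, were not used.

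Gene names, classes and coordinates are those of GENCODE M21, which matched 42462 of 43346 gene rows by ID without version. Spike-ins and numbered rows were left out. Small RNA and promoter sequences came from RefSeq tables (GRCm38.p6), which held no promoter of Rtl1, and the Dlk1 segment from GENCODE M21 transcripts. Expected counts were rounded and scaled by the TMM method (edgeR 4.0.16 under R 4.3.3), and log2 CPM (prior count 2) of replicate 1 was subtracted from that of replicate 2; transcript ratios used counts over the same scaled library sizes. Counting intervals of ratios (95%) are exact Clopper-Pearson limits given both counts' sum. The script for ratios was tested on simulated data. Alternatives were DESeq2 1.42.0 size factors, total counts, posterior means, other pseudocounts, TPM and fold limits, and leaving out either replicate. Software was pandas 2.3.3, scipy 1.17.1, numpy 2.4.6 and matplotlib 3.10.9 under Python 3.11.15. At 40454600 and 37150684 gene counts, depth limits Dio3 only among the members.

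The members, the lists and the limits were chosen with earlier results of these data known. Named are the 6 members, their transcripts that held 10% or more of its TPM in a library, other rows of the domain with at least 1 count, 2 flanking protein-coding genes on each side, the 5 noncoding genes with the highest mean TPM, and of each list up to 4 leading genes and those past 2-fold, except 1 that is not reported here; the Dlk1 models grouped by exon, Meg3-209, Pdgfra, Peg10 and Dio2 were added after their values were seen.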

Additional observations from a re-analysis of the deposited data

How the results depend on the processing

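No paired analysis was possible because the series has 1 group only. Over 142 recomputed values, 112 stayed within a limit, 30 moved further and 0 changed sign. The limit was the spread, for ratios between the pups the margin of the counting interval, and for counts of genes 1.5 times. For means of the 2 samples, leaving out either replicate cannot move a value beyond their SD. Those values are counted among the 112 and are no check. The scalings of the further rows of the domain and the Dlk1 shares without the partial model (78.1% with the whole exon against 72.3%) were added after seeing the data. The log2 ratio of noncoding to protein-coding members was 6.36 with medians and 6.43 without Meg3 and Dlk1, against 1.55, since each sum rests on 1 gene. It was 1.34 to 1.76 when either replicate was left out, and a setting without Meg3 alone was not among these values. With the 1.5-fold limit 2 members passed in place of 0, as the limit is lower. The leading transcript by TPM was the same by counts for 3 of 4 members, Mirg being the exception, and for 4 of 4 by posterior mean TPM or in either replicate. Of 45 recomputed pair ratios 11 moved beyond the spread and 0 changed sign, and of 40 ratios between the pups 10 moved by more than that margin. With a limit of 0.1 TPM 6 members were detected, and 5 at 5 TPM. With 2 libraries of 1 group, allele, strand and tissue mixture cannot be separated from the levels.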
